A study of Mus musculus with 8 samples.

Results

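Cdkn1a and a set of other target genes of the tumour suppressor p53 were examined in the left ventricle of mice with cardiac overexpression of the microRNA miR-100. The set was selected on gene name, from 10 names chosen with the measured differences between these same arrays already known. Of the 10 names, 9 had 1 row each among the 22206 rows of the array table: Cdkn1a, Phlda3, Eda2r, Mdm2, Ccng1, Trp53inp1, Sesn2, Bbc3 and Zmat3. Bax was not analysed here. Because the choice used this contrast, the group differences of the 9 genes are given as a description and carry no test.

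RNA from 4 miR-100 overexpressing and 4 wild type mice was hybridised to 8 arrays, 1 per mouse. All mice were untreated males of 8 weeks on the strain given as C57/BL6J. The overexpressing mice carried the Myh6-Cre transgene, which drives the recombinase in cardiomyocytes, together with 1 miR-100 flox allele (Cre positive miR100flox/+), and the labels name them as cardiac-specific overexpression. The labels name the other mice as wildtype and mention no Cre for them, so the transgene and the microRNA cannot be told apart. No label gives litters or the hour of collection, and p-values measure the spread between these 8 samples alone.

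p53 is a transcription factor that is held low by the ubiquitin ligase Mdm2 and that accumulates after DNA damage and other stress. Its targets stop the cell cycle, trigger cell death, repair DNA, buffer oxidants and, through Mdm2 itself, switch p53 off again. Many of these genes also answer to other regulators: Cdkn1a, which encodes the cyclin-dependent kinase inhibitor p21, is also induced by glucocorticoids and by FOXO factors. In the adult heart most cardiomyocytes have left the cell cycle.

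The mature microRNA is shown with its seed, bases 2 to 8, in capitals, because the seed is the stretch that pairs with target messages; miR-99a-5p and miR-99b-5p carry the same seed. RefSeq places it at chr9:41531437-41531458 on the plus strand of build GRCm38.p6.
miR-100-5p: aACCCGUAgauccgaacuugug

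The p53 binding motif of 10 bases was then searched by its consensus, on both strands, in RefSeq windows from 250 bases before to 50 after each gene start. The windows are shown because the set is defined by p53. Windows were found for 7 of the 9 genes, with none for Trp53inp1 and Zmat3. The motif was present in 8.36% of 32851 windows, and a pair of motifs at most 13 bases apart in 24 of them (0.0731%). The upstream start of Cdkn1a was among those 24, with 12 bases between its motifs. Their first bases lay 73 and 51 bases before the start. The window of the other Cdkn1a start held none. Mdm2 and Ccng1 each held a single motif, 186 and 185 bases before the start, and the windows of Phlda3, Eda2r, Sesn2 and Bbc3 held none. The search took exact matches to the consensus in these windows only, so inexact sites and sites elsewhere were not counted. In Cdkn1a the 10 bases right after the downstream motif miss the consensus only at their first base and stay in lower case. The stretches below run 5′ to 3′ on the strand of the gene, with the motif letters in capitals: chr17:29090901-29090952 (plus strand) for Cdkn1a, chr10:117710915-117710954 (minus strand) for Mdm2 and chr11:40755442-40755481 (minus strand) for Ccng1.
Cdkn1a: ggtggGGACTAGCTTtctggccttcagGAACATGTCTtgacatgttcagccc
Mdm2: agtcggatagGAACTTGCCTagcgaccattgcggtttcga
Ccng1: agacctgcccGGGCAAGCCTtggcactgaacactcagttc

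The arrays correlated with each other at 0.988 to 0.993 over all rows, and their median log2 signals lay between 5.70 and 5.74. Wild type replicate 2 stood apart on the first principal component (21.7% of the variance), at -38.2, against -13.0 to -3.49 on the other wild type arrays. At the opposite end, miR-100 replicate 2 lay at 30.8, against 8.96 to 13.5 on the other miR-100 arrays. Cdkn1a was lowest on wild type replicate 2, and its difference is given below with and without each of these arrays. The 7 markers of ventricular cardiomyocytes averaged 18.64 to 18.72 on the miR-100 arrays and 18.71 to 18.74 on the wild type arrays on the log2 scale. Of the 4 atrial markers, Myl7 averaged 3.83 in miR-100 overexpressing and 4.23 in wild type hearts, Sln 5.41 in miR-100 overexpressing and 5.42 in wild type hearts, and Myl4 7.61 in miR-100 overexpressing and 7.87 in wild type hearts. The fourth, Nppa, which encodes atrial natriuretic peptide and is also made by stressed ventricle, was bright: it averaged 18.36 ± 0.33 in miR-100 overexpressing and 17.32 ± 0.26 in wild type hearts (SD, n = 4 each). Its groups did not overlap, and the limma adjusted p was 0.0616. Adjusted over all rows, limma called 31 of 22206 rows between the groups (0.140%). None of the 9 genes was among them.

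Cdkn1a had the largest difference of the set. Its log2 signal was 11.66, 10.82, 11.68 and 9.89 on the miR-100 arrays, against 8.53, 7.39, 10.30 and 9.58 on the wild type arrays. The groups overlapped, since miR-100 replicate 4 lay below wild type replicate 3. The means were 11.01 ± 0.85 in miR-100 overexpressing and 8.95 ± 1.27 in wild type hearts (SD, n = 4 each). The log2 difference was 2.06 (SE 0.53), or 4.18-fold. The gene was also among the most variable within groups: its residual SD of 1.08 stood at percentile 99.8 of all rows. Leaving out 1 array at a time gave a lowest difference of 1.54 (wild type replicate 2 omitted) and a highest of 2.51 (wild type replicate 3 omitted), and 2.13 without miR-100 replicate 2. In RNA from whole tissue, fewer cells of a type and less RNA per cell cannot be told apart.

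Phlda3, which encodes a small lipid-binding protein that keeps the kinase AKT from the membrane, was the next in size. It read 5.47, 4.65, 4.91 and 5.12 on the miR-100 arrays and 4.34, 4.01, 4.20 and 3.22 on the wild type arrays. The lowest miR-100 array was above the highest wild type array. The means of 5.04 ± 0.35 in miR-100 overexpressing and 3.94 ± 0.50 in wild type hearts (SD, n = 4 each) differed by 1.10 on the log2 scale (SE 0.24). Phlda3 is a dim row here, at percentile 32.1 of the row means.

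Eda2r encodes a receptor of the tumour necrosis factor family that binds ectodysplasin A2. It read 6.03, 5.56, 6.25 and 5.49 on the miR-100 arrays and 5.39, 4.73, 5.22 and 4.48 on the wild type arrays. Its groups did not overlap either, although miR-100 replicate 4 and wild type replicate 1 were only 0.10 apart. The difference was 0.88 (SE 0.23) on the log2 scale, or 1.84-fold.

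Among the genes that feed back on p53, Mdm2 read 13.42, 13.20, 13.31 and 13.26 on the miR-100 arrays and 13.11, 13.17, 12.77 and 13.38 on the wild type arrays. The groups overlapped and the difference was 0.19 (SE 0.16). Ccng1, which encodes cyclin G1 and recruits a phosphatase to Mdm2, read 18.84, 18.89, 18.89 and 19.21 on the miR-100 arrays and 18.93, 18.96, 18.78 and 18.85 on the wild type arrays. Its row was brighter than 99.9% of rows and below the table's upper end of 19.93; whether the scale is compressed there was not tested. The difference of 0.08 (SE 0.14) came from miR-100 replicate 4 and was -0.01 without it.

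The remaining genes of the set lay close together in the 2 groups. Trp53inp1, which encodes a cofactor of autophagy and p53-dependent cell death, read 9.18, 8.85, 9.34 and 9.15 on the miR-100 arrays and 8.51, 8.70, 9.03 and 9.49 on the wild type arrays. The wild type arrays spanned both ends of that range, and the difference was 0.20 (SE 0.20). Bbc3, which encodes the cell death protein PUMA of the BCL2 family, read 5.38, 4.93, 4.96 and 4.59 on the miR-100 arrays and 5.32, 4.92, 5.05 and 4.75 on the wild type arrays. Its groups covered the same range, and it averaged 4.97 ± 0.32 in miR-100 overexpressing and 5.01 ± 0.24 in wild type hearts (SD, n = 4 each). Zmat3, an RNA-binding zinc finger protein, read 7.02, 7.19, 7.18 and 6.99 on the miR-100 arrays and 6.89, 7.03, 7.26 and 7.20 on the wild type arrays. The miR-100 arrays lay inside the wild type range. Zmat3 averaged 7.10 ± 0.10 in miR-100 overexpressing and 7.10 ± 0.17 in wild type hearts (SD, n = 4 each). Sesn2, a sestrin that restrains the growth kinase mTORC1, read 3.53, 3.72, 3.60 and 3.15 on the miR-100 arrays and 3.52, 3.47, 3.65 and 3.59 on the wild type arrays. Here miR-100 replicate 4 was the low array, and Sesn2 averaged 3.50 ± 0.25 in miR-100 overexpressing and 3.56 ± 0.08 in wild type hearts (SD, n = 4 each). The Sesn2 row was dim, at percentile 8.64 of the row means, so a difference there could be missed.

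**Figure D1:**
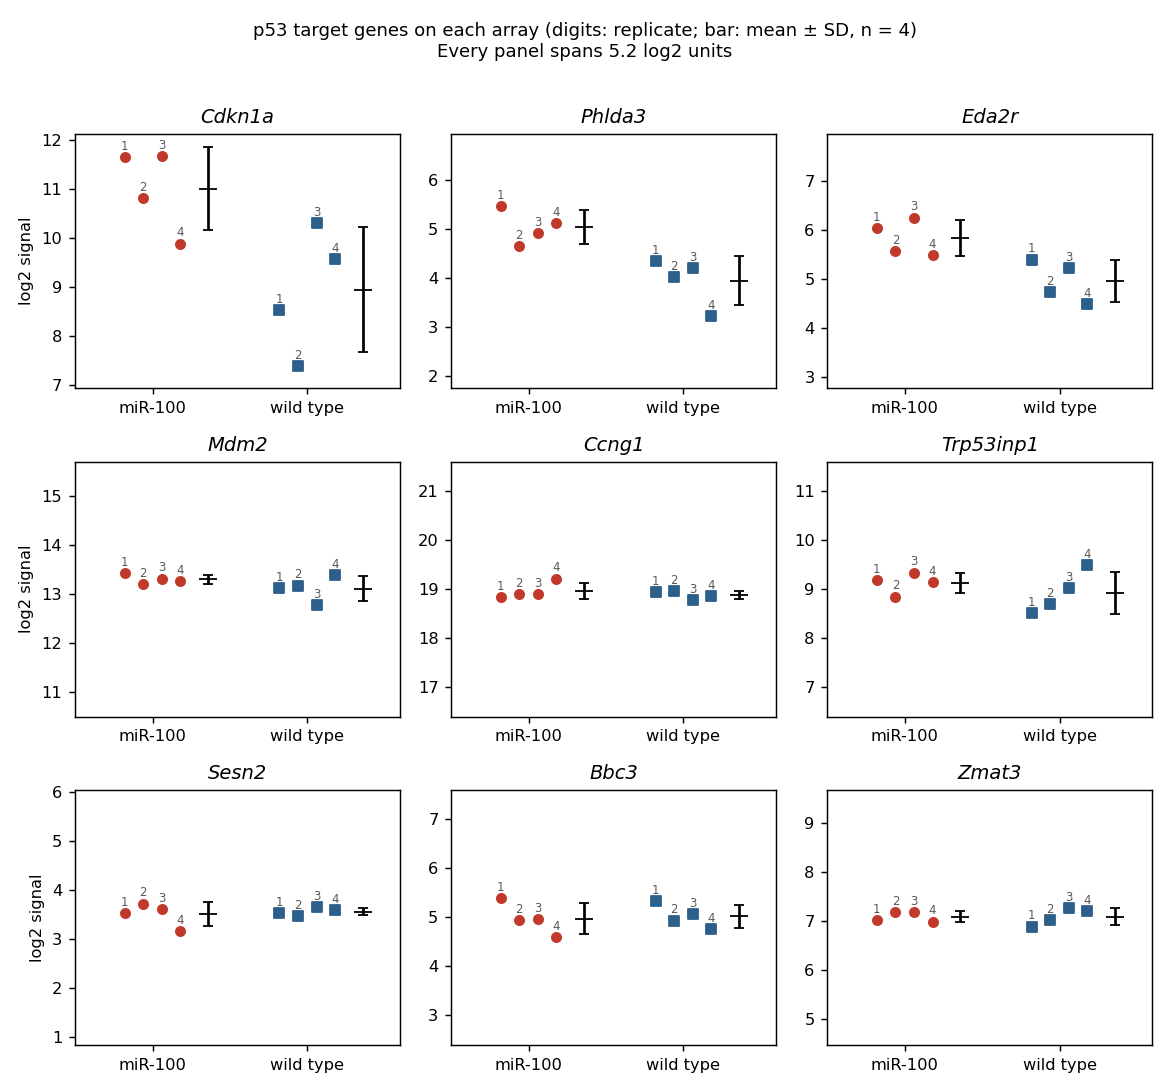
Log2 signal (vertical axis) of each of the 9 p53 target genes on the 4 miR-100 arrays (red circles, left) and the 4 wild type arrays (blue squares, right), with the replicate number above each point and the mean ± SD beside each group (n = 4). Phlda3 and Eda2r have no overlap between groups, Cdkn1a has the widest spread in both groups, and the other panels are nearly level.

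Of the 9 genes, 6 had a higher mean in miR-100 overexpressing hearts, 2 a lower one and Zmat3 the same. The median difference was 0.19 on the log2 scale, beside -0.015 over all rows. It was 0.09, 0.12 and 0.08 without wild type replicate 1, 2 and 3, so its size rests on those arrays. Groups that did not overlap, with miR-100 higher, were found for 2 of the 9 genes and for 2.21% of all rows. At an unadjusted p under 0.05 with miR-100 higher, limma counted 3 of the 9 genes (Cdkn1a, Phlda3 and Eda2r) and 3.55% of all rows. Because the choice of genes used this contrast, nothing is read from those counts.

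Whether the genes move together was asked of the spread between mice within each group, apart from the difference between group means. The genes were chosen with results of these same arrays known, so the values below are not shown to be free of that choice. Each gene's deviations from its 2 group means were correlated with those of Cdkn1a over the 8 arrays, and p-values came from exact permutation of the arrays within groups (2-sided, 576 permutations, smallest possible p 0.00174). The median Pearson r of the other 8 genes with Cdkn1a was 0.37, with 5 of 8 above 0, beside a median of -0.012 over all rows. It was 0.15 without miR-100 replicate 4. The middle of the background was wide: percentiles 5 and 95 of r over all rows were -0.715 and 0.697. After adjustment over 22205 rows, 0 rows passed for the correlation with Cdkn1a (lowest adjusted p 0.756 for r and 0.929 for Spearman's rho, exact permutation). At an unadjusted p of r under 0.05, 1374 rows passed (6.19%). Since no p can fall below 0.00174, a single row could not pass over so many rows, however high its r. The 0 therefore does not show that no row correlates with Cdkn1a.

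Over all 8 arrays, the other genes with large differences did not track Cdkn1a closely. For Phlda3, r with Cdkn1a was -0.07 and rho 0.07 (exact permutation p 0.903 and 0.896). For Eda2r, r was 0.42 and rho 0.33 (exact permutation p 0.354 and 0.502). Without the 2 arrays farthest from the Cdkn1a median, wild type replicate 2 and miR-100 replicate 3, these r were 0.03 and 0.16. With 1 array left out at a time, r ran from -0.31 to 0.25 for Phlda3 and from 0.27 to 0.72 for Eda2r. Both were highest without wild type replicate 4, so their size rests in part on that array. On wild type replicate 4, Cdkn1a lay 0.63 above its group mean while Phlda3 lay 0.72 and Eda2r 0.47 below theirs.

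Zmat3, Sesn2 and Trp53inp1, whose group means were nearly level, had the higher correlations with Cdkn1a, at r of 0.64, 0.62 and 0.56 and rho of 0.60, 0.69 and 0.64. Without the 2 far arrays these r were 0.66, 0.62 and 0.42. Of these, Sesn2 had the lowest unadjusted p for r (0.0417, exact permutation), and adjusted over all rows it was 0.775. Ccng1 ran the opposite way to Cdkn1a, at r of -0.80 and rho of -0.85 (exact permutation p 0.00694 and 0.0139, adjusted p 0.756 for r), and r was -0.86 without the 2 far arrays. Ccng1 deviated by 0.25 at most, near the upper end of the scale. The remaining correlations with Cdkn1a were 0.32 for Bbc3 and -0.19 for Mdm2.

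Between the other genes, the higher positive r fell among Phlda3, Eda2r and Bbc3. Eda2r and Bbc3 had r of 0.75 and rho of 0.79 (exact permutation p 0.0521 and 0.0451, unadjusted), and r was 0.86 without the 2 arrays farthest from the Eda2r median. Phlda3 correlated with Eda2r at r of 0.66 and rho of 0.57, and with Bbc3 at r of 0.65 and rho of 0.69 (exact permutation p of r 0.111 and 0.0885, unadjusted). Without the 2 arrays farthest from the Phlda3 median, wild type replicate 4 and miR-100 replicate 1, these r were 0.34 and -0.07, so the relations of Phlda3 rest on those arrays. The most negative pair was Ccng1 and Sesn2, at r of -0.91 and rho of -0.68 (exact permutation p 0.0313 and 0.0938, unadjusted). It rests on 2 arrays, since r was -0.17 without wild type replicate 3 and miR-100 replicate 4, the farthest from the Ccng1 median. Sesn2 and Zmat3 had r of 0.63 and rho of 0.69 (exact permutation p 0.0156 and 0.0434, unadjusted), and r was 0.83 without the 2 arrays farthest from the Sesn2 median. Zmat3 ran opposite to Phlda3 and to Ccng1, at r of -0.58 with each. Over all 36 pairs the median r was -0.111, with 16 pairs (44.4%) above 0 and 8 pairs (22.2%) above 0.5. Over all 246542115 pairs of rows the median was 0.001, with 50.01% above 0 and 13.2% above 0.5. All correlations share the same 8 arrays and are not independent of each other.

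**Figure D2:**
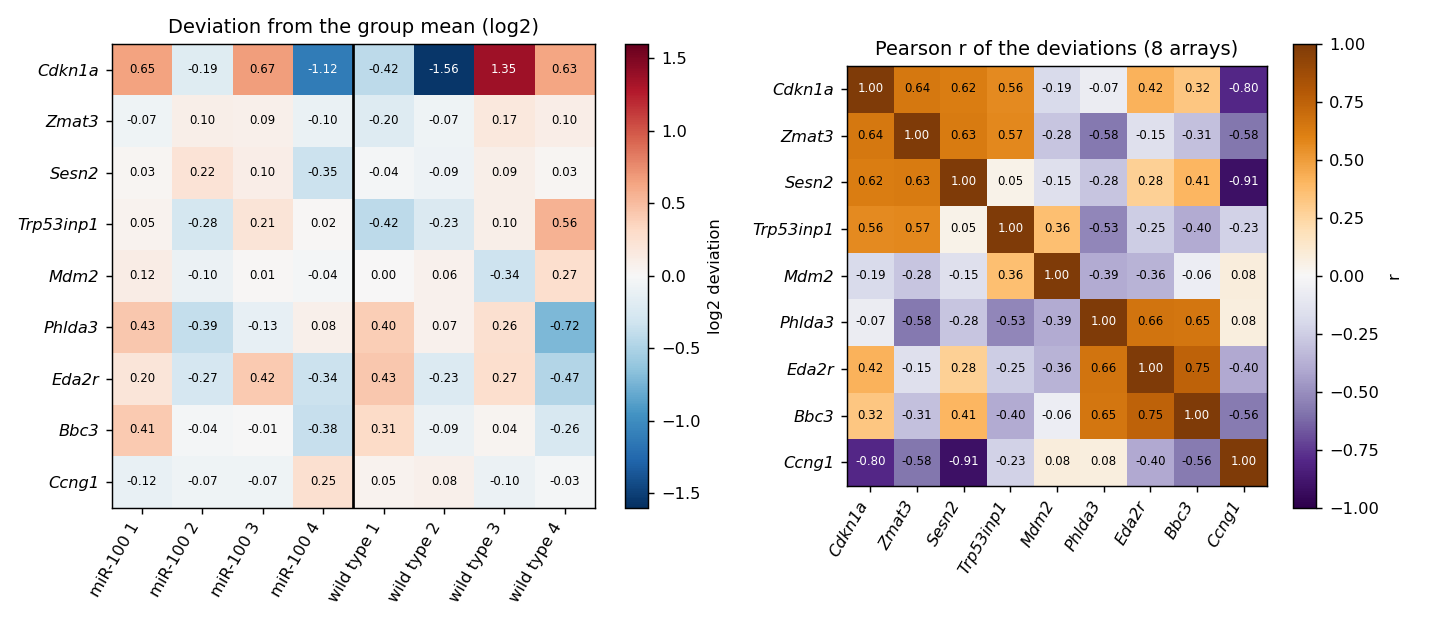
Left, deviation of each gene (rows) from its group mean on each array (columns, miR-100 left of the line, wild type right), in log2 units. Right, Pearson r of these deviations over the 8 arrays for each pair of genes. Zmat3, Sesn2 and Trp53inp1 have r of 0.64, 0.62 and 0.56 with Cdkn1a, though Trp53inp1 and Sesn2 have 0.05 with each other, Phlda3, Eda2r and Bbc3 share r of 0.65 to 0.75, and Ccng1 is negative with Cdkn1a (-0.80).

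The pathway beyond the set was read from 45 other p53 targets, of which 40 were measured. limma called 0 of the 40 after adjustment over all rows, and at an unadjusted p under 0.05 it counted 3 higher and 2 lower in miR-100 overexpressing hearts, beside 3.55% and 4.17% of all rows. Their median difference was -0.065 on the log2 scale, with 17 above 0 and 23 below. Within groups, their median r with Cdkn1a was -0.028, with 19 of 40 above 0, beside a median of -0.012 over all rows. By role the median r was 0.27 for arrest and feedback, -0.40 for cell death, 0.05 for DNA repair and nucleotides, and 0.13 for metabolism and secreted factors. Groups did not overlap for 5 with miR-100 higher and 1 lower, beside 2.21% and 2.33% of all rows.

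Gpx1, glutathione peroxidase 1, had the largest positive difference of these 40. It read 12.53, 12.48, 12.46 and 12.09 on the miR-100 arrays and 11.36, 11.69, 11.75 and 11.69 on the wild type arrays. All 4 miR-100 arrays were above all 4 wild type arrays, and the difference was 0.77 (SE 0.16, limma adjusted p 0.0958). With a moderation that lets the variance follow the signal, the same gene had an adjusted p of 0.0226, so its call depends on that setting.

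Ddit4, which encodes an inhibitor of mTORC1 that glucocorticoids also induce, had the largest negative difference. It read 7.33, 7.01, 7.64 and 7.04 on the miR-100 arrays and 7.58, 7.31, 8.88 and 9.10 on the wild type arrays. The groups overlapped, with wild type replicates 3 and 4 far above the rest, and the difference was -0.96 (SE 0.35, limma adjusted p 0.467).

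Of 9 measured arrest and feedback genes, 0 were called. They ran between Plk2, a stress-induced kinase, at 0.65 (limma adjusted p 0.542) and Btg2, an antiproliferative cofactor, at -0.32 (adjusted p 0.824). Of 12 cell death genes, 0 were called, and 9 had a lower mean in miR-100 overexpressing hearts, beside 11778 of all 22206 rows. The ends of that list were Ei24 at 0.35 (limma adjusted p 0.664) and Spata18 at -0.40 (adjusted p 0.708). Of 7 genes of DNA repair and nucleotide supply, 0 were called. Their ends were Rrm2b, a ribonucleotide reductase subunit, at 0.25 (limma adjusted p 0.722) and the replication clamp Pcna at -0.15 (adjusted p 0.884). Of 12 genes of metabolism and secreted factors, with Gpx1 and Ddit4 as the ends, 0 were called. In miR-100 overexpressing hearts 8 of them had a higher mean, beside 10329 of all 22206 rows, and 4 a lower one.

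**Figure D3:**
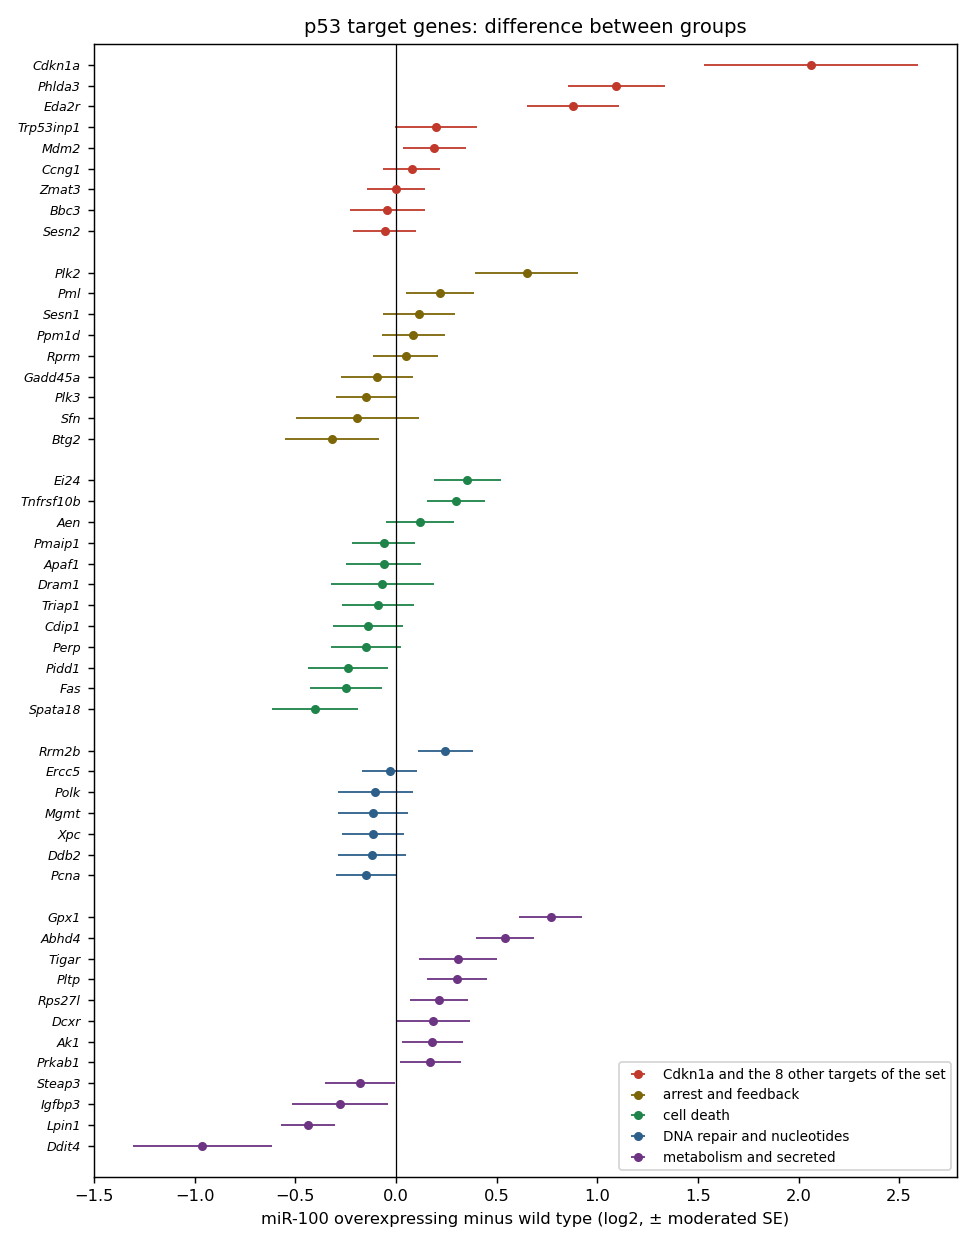
Difference in log2 signal, miR-100 overexpressing minus wild type (horizontal axis), with the moderated SE as bar, for the 9 genes of the set and 40 other p53 targets grouped by role. Cdkn1a, Phlda3 and Eda2r lie at 2.06, 1.10 and 0.88, while the other lists spread around 0 between Gpx1 at 0.77 and Ddit4 at -0.96.

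Of 18 measured genes of the p53 family and its regulators, 0 were called by limma, beside 0.140% of all rows, and 0 had an unadjusted p under 0.05. With so few rows called in the table, 0 calls among a short list say little about that list. Chek2, a DNA damage kinase, had the highest difference at 0.35 (adjusted p 0.693) and Trp63, a p53 relative, the lowest at -0.33 (adjusted p 0.818). Trp53 was not analysed here.

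p21 acts on cyclin-dependent kinases, so the cell cycle genes were read beside it. Of 9 other CDK inhibitors and pocket proteins, limma called 0 and 0 had an unadjusted p under 0.05, with differences from 0.19 for Cdkn2d down to -0.27 for Cdkn2c. Of 10 measured cyclins and CDKs, limma called 0, and 3 were higher and 1 lower at an unadjusted p under 0.05, beside 3.55% and 4.17% of all rows. Ccnd2, cyclin D2, read 12.41, 12.89, 12.38 and 13.04 on the miR-100 arrays and 11.65, 12.29, 11.89 and 12.17 on the wild type arrays. The groups did not overlap, and the difference was 0.68 (SE 0.20, limma adjusted p 0.321). Ccna2, cyclin A2, lay at -0.42 (limma adjusted p 0.542). Of 19 proliferation genes, limma called 0, 2 were lower at an unadjusted p under 0.05, beside 4.17% of all rows, and the range was 0.21 for Rrm2 to -0.58 for Tyms.

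Other inducers of Cdkn1a were read from lists of their target genes. Some of these lists share genes with each other and with the p53 lists, so their counts and medians are not independent. Of 14 glucocorticoid-induced genes, 13 had a lower mean in miR-100 overexpressing hearts, the opposite sign to Cdkn1a, with a median difference of -0.41. limma called 0 of them, and 1 was higher and 6 lower at an unadjusted p under 0.05, beside 3.55% and 4.17% of all rows. The exception in sign was Angptl4, a lipoprotein lipase inhibitor, at 8.24 ± 0.78 in miR-100 overexpressing and 7.24 ± 0.53 in wild type hearts (SD, n = 4 each; limma adjusted p 0.428). The kinase Sgk1 had the lowest difference, at -0.94 (limma adjusted p 0.345). Within groups, the same list ran with Cdkn1a: 13 of 14 had r above 0 and the median r was 0.70, beside -0.012 over all rows. These values are a description, since the genes share the 8 arrays and a common inducer. No row passed the adjusted test of r, which a single row could not pass however high its r.

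Of 13 FOXO-induced genes, limma called 0, and 0 had an unadjusted p under 0.05, with Sesn3 at 0.21 and Bcl6 at -0.42 as the ends. Their median r with Cdkn1a was 0.40. Of 16 genes of the integrated stress response, limma called 0, and 0 had an unadjusted p under 0.05, from Asns at 0.45 to Fgf21 at -0.29. Of 18 clock genes, limma called 0, and 4 were higher and 8 lower at an unadjusted p under 0.05, beside 3.55% and 4.17% of all rows, with Arntl at 1.03 (limma adjusted p 0.175) and Per2 at -0.89 (adjusted p 0.106) as the ends. Their median r with Cdkn1a was -0.14. Clock and glucocorticoid-induced genes vary with the time of day, and the part of collection time in the Cdkn1a values was not tested.

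**Figure D4:**
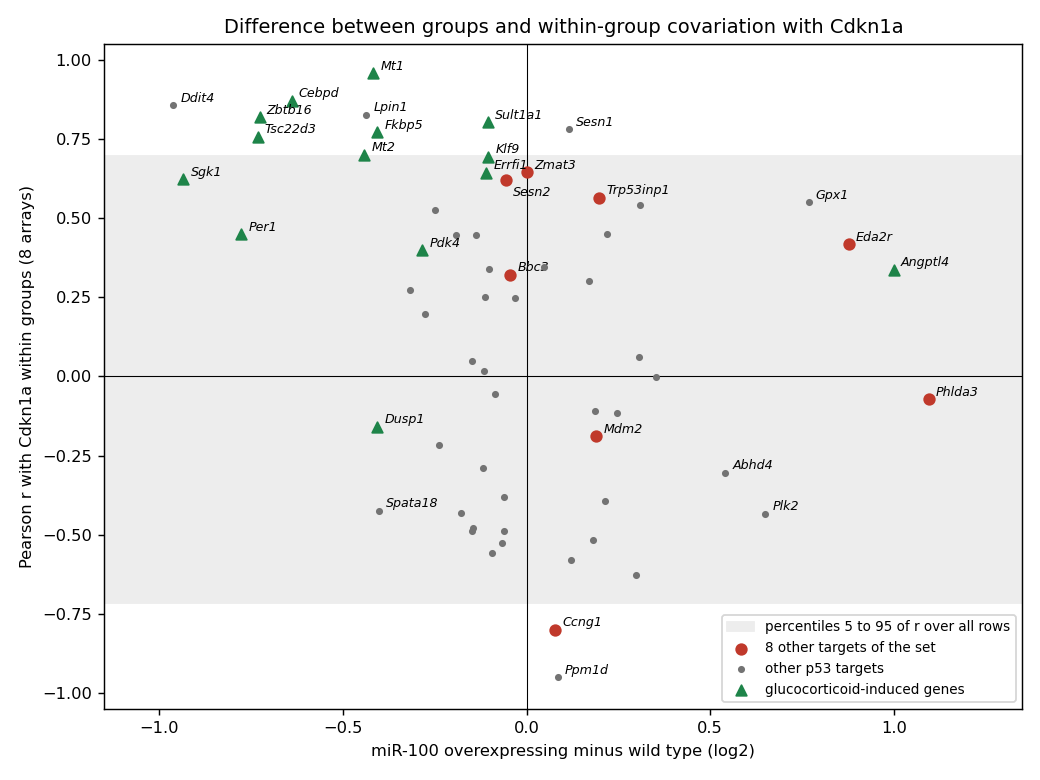
Each point is a gene, placed by its log2 difference, miR-100 overexpressing minus wild type (horizontal axis), and its Pearson r with Cdkn1a within groups over 8 arrays (vertical axis). The grey band marks percentiles 5 to 95 of r over all rows (-0.715 to 0.697). Glucocorticoid-induced genes (green triangles) lie mostly at negative differences and high r, whereas Phlda3 and Eda2r (red circles) lie at positive differences, with r of -0.07 and 0.42.

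Among 9990 named rows of at least median brightness, the rows most like Cdkn1a within groups were Dedd, Nbas, Add3, Rhobtb1, Stom and Rpl39, at r of 0.993, 0.988, 0.968, 0.966, 0.964 and 0.963 over the 8 arrays. The most opposite were Zfp932, Apol10b and Trappc1, at r of -0.997, -0.976 and -0.968. Each of these 9 had an adjusted p of 0.756 for r over all rows. These rows were picked among 9990 for this same r, so its size does not show that they follow Cdkn1a between mice. Their group differences went either way, for instance 0.34 for Nbas and -0.93 for Rhobtb1.

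Markers of other cell types were read beside these values. Macrophage markers (5 of 6 measured) averaged 8.68 to 8.94 on the miR-100 arrays and 8.63 to 9.07 on the wild type arrays, and limma called 0 of them. Their r with Cdkn1a within groups had a median of 0.69, with 5 of 5 above 0. For the ventricular cardiomyocyte markers the median was 0.64, with 5 of 7 above 0, from -0.87 for Tnnt2 to 0.71 for Myh6. Those ventricular rows varied little between arrays: Pln averaged 19.64 with an SD of 0 on the miR-100 arrays. Their r therefore rests on very small deviations, and whether the scale is compressed there was not tested. Smooth muscle and pericyte markers (6 of 6) averaged 10.07 to 10.50 on the miR-100 arrays and 10.11 to 10.24 on the wild type arrays, and limma called 0 of them, with Acta2 the highest at 1.11 (adjusted p 0.203). Their median r with Cdkn1a was 0.27. Endothelial markers (6 of 6) averaged 11.82 to 12.06 on the miR-100 arrays and 11.88 to 12.06 on the wild type arrays, with a median r of -0.31. The part of any of these cell types in the Cdkn1a values was not tested.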

How the data were processed

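Total RNA from 8 left ventricles was extracted with TriPure and labelled with the Affymetrix WT Plus kit, per the labels' protocols. The authors deposited log2 signals, 1 per transcript cluster and array. Transcriptome Analysis Console 4.0 is named in the submitters' processing notes; normalization and genome build are not given in the sources used here. Signal over background, not read depth, limits precision. Of 22206 rows, 19572 had 1 gene symbol; a gene with several rows was read from its brightest.

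Differences (miR-100 overexpressing minus wild type) came from limma 3.58.1 in R 4.3.3 without covariates, transformation or filter, with Benjamini-Hochberg adjustment over all rows at 0.05. The SE is moderated. Within-group correlations used exact permutation. The limma fit was tested on simulated data. Alternatives covered moderation, weights, normalization, filters, the replicate number and leaving out arrays.

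The genes, lists and tests were chosen with earlier results of these data known. The text names all genes of the set, the called or otherwise the highest and lowest gene of each list, and the 6 most and 3 least alike bright rows; markers and cell types outside this rule were chosen after their values were seen. Sequences are RefSeq's, GRCm38.p6.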

Additional observations from a re-analysis of the deposited data

Results flagged for a closer look

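Dixon's ratio at its 95% critical value was checked for 84 groups of 4 arrays. They cover the genes of the set, the genes named from other gene lists and the rows most and least like Cdkn1a. The cell type markers named were not part of this check. Of the 84 groups, 4 held an array set apart from the other 3. By chance about 1 group in 20 is set apart. Ccng1 on miR-100 replicate 4 was 19.21, against 18.84 to 18.89 on the other miR-100 arrays (ratio 0.865). Gpx1 was set apart in both groups: miR-100 replicate 4 read 12.09, against 12.46 to 12.53 on the other miR-100 arrays (ratio 0.841), and wild type replicate 1 read 11.36, against 11.69 to 11.75 on the other wild type arrays (ratio 0.846). Rpl39 on miR-100 replicate 4 was 11.02, against 11.52 to 11.55 on the other miR-100 arrays (ratio 0.943). In 3 of these 4 groups the array was miR-100 replicate 4, on which Cdkn1a was also lowest of the miR-100 arrays. Rpl39 was named for its high r with Cdkn1a, so its low reading there follows in part from that choice. Nothing is read from the shared array.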

How the results depend on the processing

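The Cdkn1a difference stayed above 0 in every alternative and ranged from 1.54 to 2.51 when arrays were left out 1 at a time. The median difference of the 9 genes ranged from 0.078 to 0.281 and their median r with Cdkn1a from 0.15 to 0.54 over the same repeats. All 148 repeats of a single gene's difference moved by less than 1 SD, though the near-zero values of Ccng1, Sesn2, Bbc3 and Zmat3 took either sign. That limit could hardly be passed. Moderation, filters and the block leave a difference unchanged, and omitting 1 array cannot move a group mean by a whole SD of its group. Rows called over the table numbered 31 and ranged from 11 to 27 with 1 array left out, and were 65 with an intensity trend in the moderation. That setting called 1 of the other p53 targets, Gpx1, and leave-one-out repeats called 0. With the replicate number as a block (replicate block), 21 rows and 0 other p53 targets were called. Same-numbered arrays of the 2 groups had correlations of their deviations from -0.060 to 0.066. Values this low do not show whether these arrays share anything beyond the number. The alternatives planned for Bax were not run. Dim rows such as Sesn2 and Phlda3 limit what their differences can show.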
